A study of Sus scrofa with 8 samples.

Results

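Macrophages of the embryonic limb were followed through 10 transcripts that are textbook markers of these cells or of leukocytes in general. They were C1QA, C1QB and C1QC, the chains of complement C1q, the receptors CSF1R, CD163, MRC1 and PTPRC, the adaptor TYROBP and the intracellular proteins AIF1 and LAPTM5. The 10 genes were picked by symbol, through their pig Ensembl identifiers, from the 22516 genes of the deposited table of estimated read counts. All 10 had a row, and all 10 were among the 17020 genes that passed the filter on low counts and were tested. Bulk RNA sequencing was done on pig limb muscle at embryonic days 41 (E41) and 62 (E62). Wild type (WT) was compared with a knockout (KO) of MYF5, MYOD and MYF6, factors that start the skeletal muscle programme, and each combination of genotype and stage had 2 libraries, called biological replicates in the titles. The growth protocol gives a slightly earlier day for the later stage, and the series title speaks of a knockdown. How the alleles were made and how many edited lines were used is not stated in the labels. The KO E62 library names carry what appear to be 2 embryo labels. Those of the other groups carry numbers that are not explained, so which animals gave them is not stated. The p-values below rest on the variation among libraries, which outside KO E62 may be technical. Each group's library names carry a number of their own, and those of WT E41 a limb code of their own, so a litter, batch or limb effect cannot be told apart from the group.

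Macrophages settle in embryonic tissues early and engulf dying cells. Their survival depends on CSF1R, the receptor for the growth factors CSF1 and IL34. C1q is the recognition molecule of the classical complement pathway: it binds antibody complexes and apoptotic cells and is made largely by tissue macrophages. CD163 takes up haemoglobin bound to haptoglobin, and MRC1, the mannose receptor, takes up glycoproteins. TYROBP passes signals from receptors such as TREM2 to the kinase SYK through an activation motif called ITAM, AIF1 (also called IBA1) bundles actin at membrane ruffles, LAPTM5 is a lysosomal membrane protein of blood cells and PTPRC (CD45) is the membrane tyrosine phosphatase carried by nearly all leukocytes. MRC1 is also made by lymphatic and some other endothelial cells, and LAPTM5, TYROBP and PTPRC by other leukocytes.

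In the RefSeq annotation of the pig assembly Sscrofa11.1, the 3 C1q genes lie side by side on chromosome 6, within 19818 bases. C1QA spans 80586259 to 80589213, C1QC 80592591 to 80597464 and C1QB 80601680 to 80606076, and the gaps between them are 3377 and 4215 bases. LAPTM5 (87363911 to 87390371) and TYROBP (45309199 to 45312562) lie on the same chromosome. CSF1R is on chromosome 2 from 151102138 to 151130311, CD163 on chromosome 5 from 63300200 to 63334497 and AIF1 on chromosome 7 from 23711752 to 23731191. MRC1 (44107926 to 44226734) and PTPRC (21482984 to 21601627) are on chromosome 10. All 10 are protein-coding genes, and positions are those of whole genes matched by symbol.

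Levels are given as CPM, read counts scaled to a library total adjusted by TMM. Library totals ranged from 23402052 to 60539245 counts, and the 10 genes together held 3756 to 56834 counts in a library. MYF5 and MYF6 had 0 counts in all 4 knockout libraries, and MYOD1 had 28, 20, 77 and 88 there against 1503 to 5715 in wild type. A panel of 5 muscle markers summed to 4829.5 to 5091 CPM in WT E41 and 15912 to 19731 in WT E62, against 2.05 to 4.06 in KO E41 and 2.91 to 3.14 in KO E62, so the knockout tissue labelled muscle held almost no muscle transcripts. Macrophage markers were present in all 4 groups: 11 of a panel of 12 were in the file, none was at 0 in both libraries of a group, and 7 of the panel are among the 10 genes described. The WT E41 libraries differed for the genes studied here. Replicate 1 was higher than replicate 2 for all 10, by 1.14-fold for LAPTM5 to 3.22-fold for CD163 and by 1.79-fold for their sum, while the median ratio over all genes tested was 0.991. In the other 3 groups, these ratios lay between 0.683 and 1.19. KO E62 replicate 2 stood above replicate 1 for lymphocyte markers (panel sums 22.9 and 6.801 CPM) and endothelial markers (1376 and 851 CPM).

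All 10 genes were higher in the knockout at E62, whereas at E41 the genotypes differed by smaller amounts and not in 1 direction. The summed level of the 10 genes was 188 and 213 CPM in WT E62 and 838 and 847 CPM in KO E62, and 298 and 166 CPM in WT E41 and 316 and 307 CPM in KO E41. For each of the 10 genes, both KO E62 libraries lay above all 6 other libraries. The share of all genes with that order is not given here, so it is only a description. At E62, 10 of 10 genes passed edgeR's quasi-likelihood test (Benjamini-Hochberg adjusted p under 0.05 over all genes tested) as higher, against 21.0% of all genes. Their median log2 fold change was 2.13, or 4.39-fold, against 0.06 over all genes. The groups did not overlap for 10 of 10, against 40.1% of all genes higher without overlap. At E41, 3 of 10 were higher (C1QA, LAPTM5 and CSF1R) and 1 lower (AIF1), against 18.5% and 20.8% of all genes. The median log2 change at E41 was 0.43, against 0.09 over all genes. Knockout libraries were higher without overlap for 6 genes and lower for 1 at E41, against 40.1% and 33.3% of all genes. The E41 calls depended on the library left out: the median log2 change of the 10 genes was 0.98 without WT E41 replicate 1 and 0.18 without replicate 2. Such fits leave WT E41 with 1 library, and the gap between its 2 libraries no longer adds to the spread. The knockout tissue held almost no muscle transcripts, so other cells can make up a larger share of its RNA. In bulk tissue, such a larger share, more macrophages and more of these transcripts per cell cannot be told apart.

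**Figure D1:**
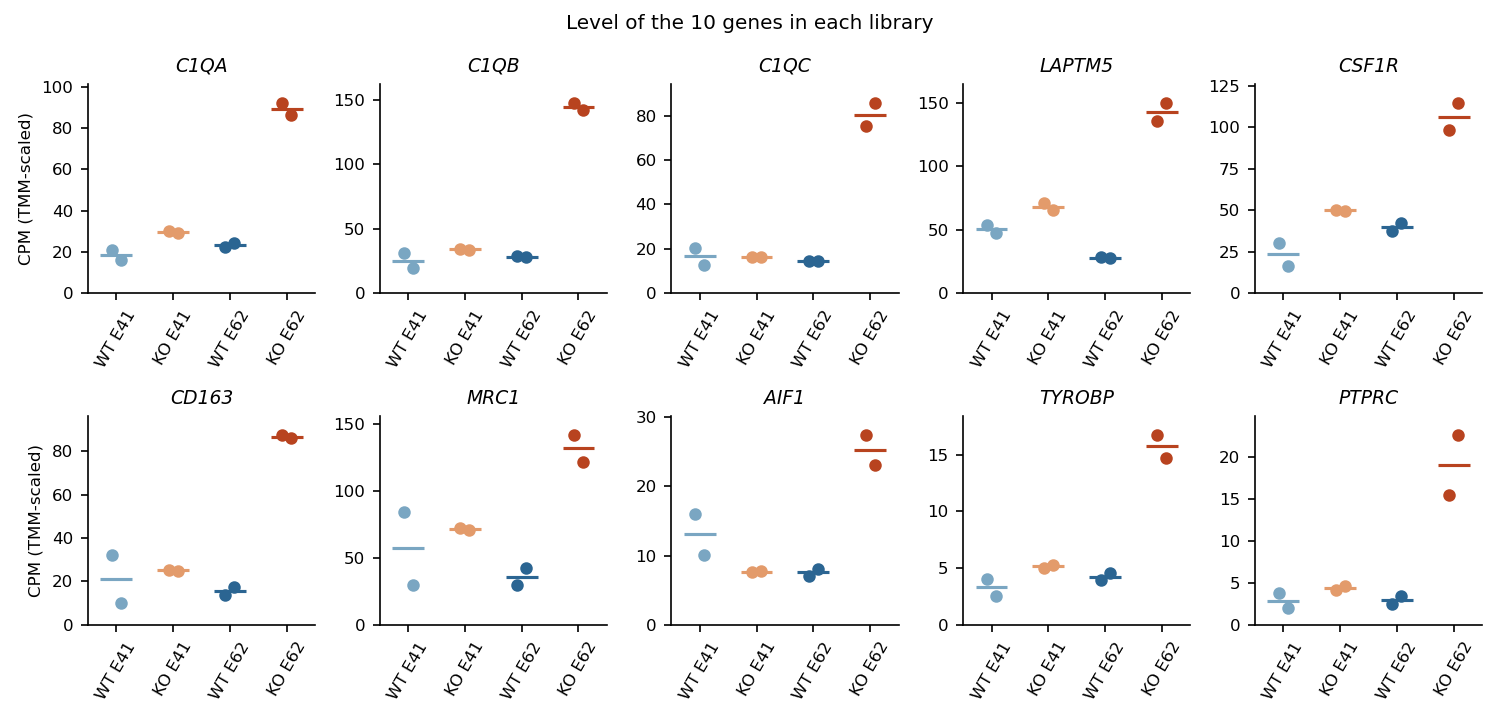
Level of each of the 10 genes in CPM (TMM-scaled, linear axes from 0), with 1 point per library and a line at the mean of 2 libraries, for wild type (WT) and knockout (KO) at E41 and E62. Both KO E62 points lie above every other library in all 10 panels, and the WT E41 points of CD163 (32.2 and 9.998) and MRC1 (84.6 and 29.8) lie far apart.

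All 3 C1q chains rose at E62, and at E41 C1QA alone passed the test. Differences between the chains were not tested. C1QA, which encodes the A chain, stood at 20.9 and 16.1 CPM in wild type and 30.2 and 29.03 in the knockout at E41, and at 22.5 and 24.5 CPM in wild type and 91.9 and 86.4 in the knockout at E62. Its groups ran from WT E41 through WT E62 and KO E41 to KO E62 without overlap. The knockout was 1.598-fold higher at E41 (95% interval 1.299 to 1.97), a log2 change of 0.68 ± 0.13 (edgeR adjusted p = 0.00497), and 3.79-fold higher at E62 (interval 3.07 to 4.66), a log2 change of 1.92 ± 0.13 (edgeR adjusted p = 2.19e-05). Here and below, ± is a standard error with n = 2 libraries per group, and intervals are of the fold change. For each gene the spread behind it is estimated over all 4 groups, not only the 2 compared. C1QB, the B chain, was at 31.4 and 19.2 CPM in wild type and 34.5 and 33.4 in the knockout at E41. Later it was at 28.7 and 28.3 CPM in wild type and 147 and 142 in the knockout at E62, and the knockout was 5.09-fold higher (interval 3.66 to 7.07). Its log2 change was 2.35 ± 0.20 (edgeR adjusted p = 1.12e-04) at E62 and 0.43 ± 0.20 (edgeR adjusted p = 0.126) at E41, with an interval of 0.976 to 1.85-fold, where the 2 groups did not overlap but the test was not passed. With library sizes alone in place of TMM the E41 difference passed (edgeR adjusted p = 0.0192). The log2 change of C1QB at E41 was 0.87 without WT E41 replicate 1 and 0.13 without replicate 2. C1QC, the C chain, gave 20.5 and 12.6 CPM in wild type and 16.1 and 16.3 in the knockout at E41, with both knockout values between the wild-type ones. It gave 14.3 and 14.5 CPM in wild type and 75.4 and 85.4 in the knockout at E62, a 5.58-fold rise (interval 3.99 to 7.81) that overlaps the intervals of the other chains. The changes were -0.03 ± 0.20 (edgeR adjusted p = 0.922) at E41, with an interval of 0.706 to 1.36-fold, and 2.48 ± 0.21 (edgeR adjusted p = 8.79e-05) at E62. At E41 its log2 change was 0.40 without WT E41 replicate 1 and -0.33 without replicate 2.

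CSF1R was the gene that rose most at E41 and least at E62. The receptor's transcript was measured at 30.2 and 16.5 CPM in wild type and 49.97 and 49.6 in the knockout at E41, and at 37.7 and 42.5 CPM in wild type and 98.4 and 114 in the knockout at E62. The 4 groups did not overlap, and rose in the order WT E41, WT E62, KO E41 and KO E62. The log2 change was 1.09 ± 0.26 (edgeR adjusted p = 0.0154) at E41 and 1.41 ± 0.25 (edgeR adjusted p = 0.00415) at E62. At E41 the call was lost without KO E41 replicate 1 (adjusted p = 0.0662) or KO E41 replicate 2 (0.0628), and in a fit of only the groups compared (0.0547), with a range of 6.81e-05 to 0.0662 over all alternatives. Its ligands also rose. CSF1, the main macrophage growth factor, changed by 1.00 ± 0.30 (edgeR adjusted p = 0.0381) at E41 and 1.11 ± 0.29 (edgeR adjusted p = 0.0203) at E62, and IL34, the other ligand, by 0.97 ± 0.24 (edgeR adjusted p = 0.0151) and 0.77 ± 0.23 (edgeR adjusted p = 0.0276). Of 8 tested genes of this growth factor axis, which includes chemokines and related cytokine receptors, 2 were higher at E41 and 5 at E62, and none was lower. CSF2RB, a shared subunit of cytokine receptors, rose by 1.62 ± 0.35 at E62, and the monocyte chemokine CCL2 by 1.89 ± 0.36. Counts of list genes that moved by over 1.5 times are given here and below with the library left out, or the setting, in brackets. For growth factor axis genes, the number higher at E41 was 0 (WT E41 replicate 2 or KO E41 replicate 2), 1 (KO E41 replicate 1, the replicate block) and 4 (WT E41 replicate 1, library sizes alone), and the number higher at E62 was 1 (WT E62 replicate 1) and 2 (KO E62 replicate 2).

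The scavenger receptors CD163 and MRC1 had the widest standard errors of the 10 genes, and both rose at E62. Because the spread is estimated over all 4 groups, the gap between the WT E41 libraries enters their E62 tests too. CD163 was at 32.2 and 9.998 CPM in wild type and 25.3 and 24.8 in the knockout at E41, and the knockout values lay between those of the 2 wild-type libraries. Later it was at 13.9 and 17.5 CPM in wild type and 87.6 and 86.1 in the knockout at E62, with no overlap. Its change was 2.47 ± 0.52 (edgeR adjusted p = 0.0121) at E62, an interval of 2.26 to 13.5-fold, and 0.25 ± 0.50 (edgeR adjusted p = 0.731) at E41. The E62 call was lost without WT E62 replicate 1 (adjusted p = 0.0931) or replicate 2 (0.0657), with a range of 1.05e-09 to 0.0931 over all alternatives. At E41 the direction depended on the wild-type library kept: the log2 change was 1.37 without WT E41 replicate 1 and -0.35 without replicate 2. Each of these fits left WT E41 with 1 library, so the gap between the 2 no longer added to the spread. MRC1 had the same order of libraries at E41, with 84.6 and 29.8 CPM in wild type and 72.1 and 70.6 in the knockout at E41. The later stage gave 29.4 and 42.1 CPM in wild type and 142 and 122 in the knockout at E62, and again only the E62 groups were apart. MRC1 changed by 1.88 ± 0.49 (edgeR adjusted p = 0.0257) at E62 and 0.32 ± 0.48 (edgeR adjusted p = 0.638) at E41. Its E62 call was lost when any of 6 libraries was left out, the exceptions being the 2 WT E41 libraries. The log2 change of MRC1 at E62 then lay between 1.64 (without WT E62 replicate 1) and 2.16 (without WT E62 replicate 2). At E41 MRC1 stood at 1.30 without WT E41 replicate 1 and -0.23 without replicate 2.

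AIF1 was the 1 gene of the 10 that was lower in the knockout at E41 and higher at E62. It stood at 16.1 and 10.04 CPM in wild type and 7.64 and 7.73 in the knockout at E41, and at 7.01 and 8.13 CPM in wild type and 27.5 and 23.1 in the knockout at E62. KO E41 and WT E62 overlapped at the bottom, WT E41 lay above them and KO E62 was highest. The changes were -0.76 ± 0.22 (edgeR adjusted p = 0.0287) at E41 and 1.74 ± 0.22 (edgeR adjusted p = 5.90e-04) at E62. The E41 call was lost without WT E41 replicate 1 (log2 change -0.34, adjusted p = 0.194, the highest of a range from 0.00789), without KO E41 replicate 1 (0.116) or replicate 2 (0.112), with limma-voom (0.0578) and with library sizes alone (0.107), and the sign stayed negative in all of these. TYROBP, the ITAM adaptor, was at 4.01 and 2.57 CPM in wild type and 5.04 and 5.25 in the knockout at E41. It reached 3.94 and 4.54 CPM in wild type and 16.7 and 14.8 in the knockout at E62, with the wild-type libraries of both stages overlapping at the bottom. TYROBP changed by 0.65 ± 0.24 (edgeR adjusted p = 0.0629) at E41, where the groups did not overlap but the test was not passed, and by 1.89 ± 0.23 (edgeR adjusted p = 4.83e-04) at E62. Its E41 difference passed with library sizes alone (edgeR adjusted p = 0.0125) and with a CPM filter of at least 1 CPM in 4 libraries (0.0469). The log2 change of TYROBP at E41 was 1.05 without WT E41 replicate 1 and 0.38 without replicate 2.

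PTPRC, the pan-leukocyte phosphatase, had the largest log2 change of the 10 at E62 and the lowest count in a library. It gave 3.77 and 1.95 CPM in wild type and 4.11 and 4.67 in the knockout at E41, and 2.47 and 3.39 CPM in wild type and 15.5 and 22.7 in the knockout at E62. These levels rest on 44 to 215 reads per library at E41 and 82 to 1358 at E62. KO E62 replicate 2 was the higher of its pair for PTPRC, as it was for the lymphocyte panel. PTPRC changed by 2.70 ± 0.35 (edgeR adjusted p = 5.99e-04) at E62, or 6.51-fold (interval 3.73 to 11.4), and by 0.62 ± 0.34 (edgeR adjusted p = 0.188) at E41. Its E41 log2 change was 1.21 without WT E41 replicate 1 and 0.24 without replicate 2. LAPTM5, the lysosomal protein, had the smallest spread between replicates of the 10 genes in WT E41. Its levels were 54.1 and 47.4 CPM in wild type and 70.8 and 65.8 in the knockout at E41, and 28.2 and 27.4 CPM in wild type and 136 and 149.7 in the knockout at E62. Like AIF1, it was lower in WT E62 than in WT E41 without overlap, and the order ran from WT E62 through WT E41 and KO E41 to KO E62, with no overlap. LAPTM5 changed by 0.43 ± 0.10 (edgeR adjusted p = 0.0118) at E41 and 2.36 ± 0.10 (edgeR adjusted p = 2.33e-06) at E62. Leaving out WT E41 replicate 2 (0.35, adjusted p = 0.0625) or KO E41 replicate 1 (0.38, adjusted p = 0.0804) ended the E41 call, and the range over all alternatives was 0.00139 to 0.0804.

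The knockout effect differed between the stages for 7 of the 10 genes. The test of the difference (E62 effect minus E41 effect) called 7 of 10 as higher and 0 as lower, against 11.2% and 15.5% of all genes. Among the genes that passed, the difference was largest for C1QC at 2.51 ± 0.29 (edgeR adjusted p = 0.00166), AIF1 at 2.50 ± 0.32 (edgeR adjusted p = 0.00192) and PTPRC at 2.08 ± 0.48 (edgeR adjusted p = 0.01701). LAPTM5 (1.93 ± 0.14), C1QB (1.92 ± 0.28), C1QA (1.24 ± 0.18) and TYROBP (1.24 ± 0.33) also passed, with edgeR adjusted p from 5.43e-04 for LAPTM5 to 0.02799 for TYROBP. CSF1R did not pass at 0.31 ± 0.36 (edgeR adjusted p = 0.552), and its interval ran from 0.691 to 2.23-fold. CD163 at 2.22 ± 0.71 (edgeR adjusted p = 0.0725) and MRC1 at 1.56 ± 0.68 (edgeR adjusted p = 0.1503) did not pass either, and their intervals of 1.36 to 15.9-fold and 0.9103 to 9.59-fold were the widest of the 10. Without WT E41 replicate 2, the difference was 0.67 for CSF1R, 2.81 for CD163 and 2.11 for MRC1. Without replicate 1 it was -0.23, 1.096 and 0.58, so the sign of CSF1R turned. CD163 passed with DESeq2 (2.26, adjusted p = 3.38e-04) and with limma-voom (1.96, 0.0326), but did not pass in 12 of the 16 alternatives. For TYROBP the call was lost without WT E41 replicate 1, either KO E41 library, either WT E62 library or KO E62 replicate 1 (adjusted p up to 0.0973). PTPRC lost it without WT E41 replicate 1, either KO E41 library or WT E62 replicate 1 (up to 0.0674) and with limma-voom (0.0599).

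**Figure D2:**
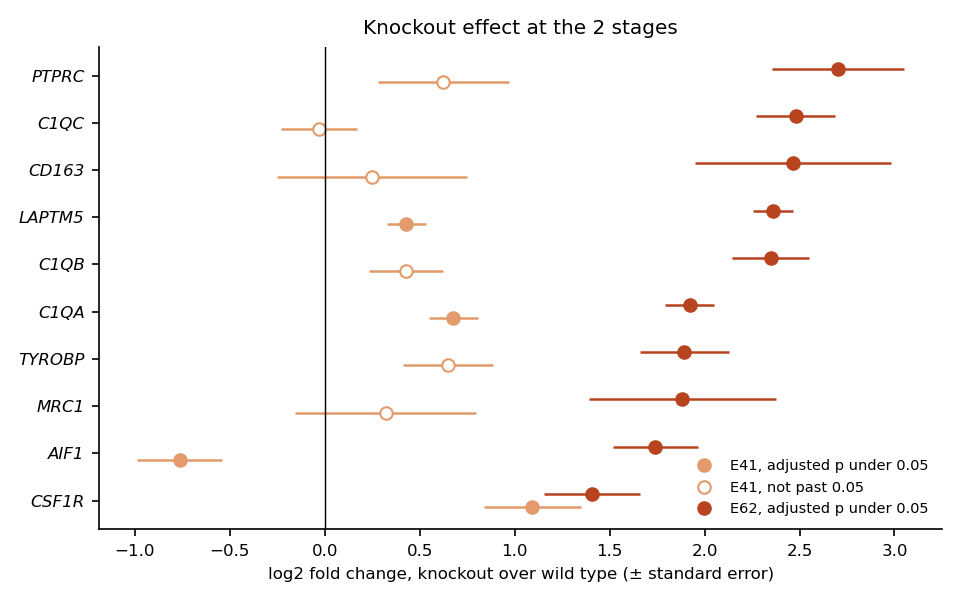
Log2 fold change of knockout over wild type at E41 and E62 for the 10 genes, ordered by the E62 value, with bars of 1 standard error (2 libraries per group) and filled points where the edgeR adjusted p was under 0.05. All 10 E62 points lie to the right, from 1.41 for CSF1R to 2.70 for PTPRC, and the E41 points run from -0.76 for AIF1 to 1.09 for CSF1R.

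Followed over time within a genotype, the genes rose in the knockout limb. Between E41 and E62, 9 of 10 were higher and 0 lower in the knockout, against 12.1% and 18.0% of all genes, with a median log2 change of 1.67 (-0.03 over all genes). C1QC (2.31 ± 0.20), PTPRC (2.12 ± 0.33) and C1QB (2.09 ± 0.20) rose most, and MRC1 did not pass (0.89 ± 0.48, edgeR adjusted p = 0.2097). MRC1 passed in a fit of only the groups compared (edgeR adjusted p = 0.00756), and its log2 change was 0.92 without WT E41 replicate 1 or replicate 2. CD163, at 1.79 ± 0.50 (edgeR adjusted p = 0.0462), lost the call when any KO E41, WT E62 or KO E62 library was left out (adjusted p up to 0.1997), with the replicate block (0.0639) and where low counts were not filtered (0.0688). CSF1R (1.09 ± 0.25, edgeR adjusted p = 0.0194) lost it without KO E41 replicate 1 (0.107), KO E41 replicate 2 (0.0995) or KO E62 replicate 2 (0.08003). In wild type, 1 gene was higher at E62 (CSF1R) and 2 were lower (LAPTM5 and AIF1), against 19.8% and 20.0% of all genes. LAPTM5 fell by 0.87 ± 0.10 on the log2 scale (edgeR adjusted p = 8.47e-04) and AIF1 by 0.79 ± 0.22 (0.0265), while CSF1R stood at 0.78 ± 0.26 (edgeR adjusted p = 0.0489), next to the threshold. CSF1R lost that call in 10 of the 17 alternatives, among them each left-out library apart from those of WT E41. AIF1 lost its call without WT E41 replicate 1 (0.212), WT E62 replicate 1 (0.161) or replicate 2 (0.0877) and with limma-voom (0.0675). Without WT E41 replicate 1, the log2 changes of C1QA, C1QB, CD163 and TYROBP in wild type were 0.63, 0.65, 0.73 and 0.81. Without replicate 2 they were 0.23, -0.083, -0.98 and 0.14. Those of C1QC and MRC1 were 0.27 and 0.35 without WT E41 replicate 1, and -0.46 and -1.19 without replicate 2. C1QA passed as higher with library sizes alone, TMM from genes outside the muscle list and the CPM filter. Over all alternatives the highest adjusted p of these genes was 0.857 and the lowest 0.00801. These comparisons share groups with the tests of genotype.

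The 10 genes did not keep fixed proportions to one another. Transcript lengths were not used here, so levels are compared within a gene, and the ratio of counts of 2 genes is followed from library to library as a description. C1QC over C1QA was 0.982 and 0.781 in WT E41, 0.534 and 0.562 in KO E41, 0.636 and 0.591 in WT E62 and 0.8204 and 0.989 in KO E62. The ratio was lowest in KO E41 and did not overlap between genotypes at either stage, lower in the knockout at E41 and higher at E62. C1QB over C1QA was 1.499 and 1.19 in WT E41, 1.14 and 1.15 in KO E41, 1.27 and 1.15 in WT E62 and 1.605 and 1.65 in KO E62, highest in both KO E62 libraries. AIF1 over PTPRC was 4.27 and 5.16 in WT E41, 1.86 and 1.66 in KO E41, 2.84 and 2.4 in WT E62 and 1.77 and 1.02 in KO E62, and both WT E41 libraries lay above the 6 others. That order depended on the second gene. AIF1 over LAPTM5 was 0.298 and 0.212 in WT E41 and 0.248 and 0.297 in WT E62, which overlapped. It was 0.108 and 0.117 in KO E41 and 0.202 and 0.154 in KO E62. TYROBP over PTPRC, 2 genes that other leukocytes share with macrophages, was 1.06 and 1.32 in WT E41, 1.23 and 1.13 in KO E41, 1.598 and 1.34 in WT E62 and 1.08 and 0.651 in KO E62. MRC1 over CSF1R was 2.799 and 1.804 in WT E41, 1.44 and 1.42 in KO E41, 0.781 and 0.9903 in WT E62 and 1.44 and 1.07 in KO E62, and CD163 over CSF1R was 1.07 and 0.606 in WT E41, 0.506 and 0.4996 in KO E41, 0.368 and 0.412 in WT E62 and 0.8904 and 0.754 in KO E62. In both of these ratios the WT E41 libraries differed from each other, and KO E62 lay above WT E62. CD163 over MRC1 varied little at E41, at 0.381 and 0.336 in WT E41 and 0.351 and 0.351 in KO E41. At E62 it was 0.472 and 0.416 in WT E62 and 0.617 and 0.706 in KO E62.

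**Figure D3:**
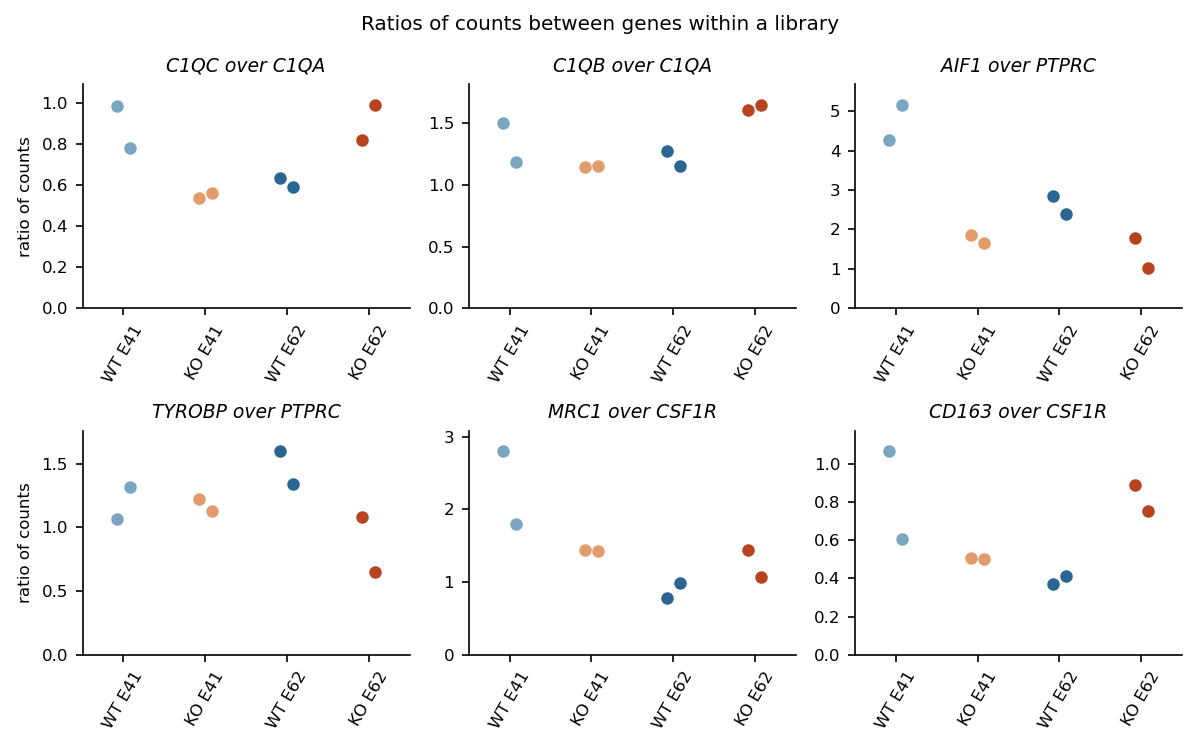
Ratio of the counts of 2 genes within each library (1 point per library, linear axes from 0) for 6 pairs of the 10 genes, in wild type (WT) and knockout (KO) at E41 and E62. C1QC over C1QA is 0.534 and 0.562 in KO E41 and 0.8204 and 0.989 in KO E62, and AIF1 over PTPRC falls from 4.27 and 5.16 in WT E41 to 1.77 and 1.02 in KO E62.

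Most other macrophage and leukocyte genes, listed by function, also stood higher at E62. The lists were chosen with earlier results of these data known, so they are not independent support. Their counts are to be read against 18.5% of all genes higher and 20.8% lower at E41. At E62 these shares were 21.0% and 26.2%. Among phagocytic and scavenger receptors, 4 of 13 tested genes passed as higher and 0 as lower at E41 (median log2 change 0.54), and 11 passed as higher and 0 as lower at E62 (median 2.02). STAB1, an endocytic receptor of macrophages and sinusoidal endothelium, stood at 32.4 and 23.4 CPM in wild type and 58.99 and 50.2 in the knockout at E41 and 36.7 and 43.6 CPM in wild type and 279 and 306 in the knockout at E62, a change of 2.86 ± 0.18 (edgeR adjusted p = 1.73e-05) at the later stage. CD68, a lysosomal glycoprotein of phagocytes, rose by 2.92 ± 0.32 and the lectin SIGLEC1 by 2.39 ± 0.27 at E62. VSIG4, a receptor for complement C3 fragments, rose by 2.09 ± 0.24, and MERTK, which binds apoptotic cells through bridging proteins, by 0.98 ± 0.21 at E41 and 1.91 ± 0.22 at E62. For these receptors, the number higher at E41 was 2 (WT E41 replicate 2 or KO E41 replicate 2), 8 (library sizes alone) and 9 (WT E41 replicate 1). Of ITAM partners and kinases downstream of TYROBP, 1 of 12 tested genes passed as higher and 0 as lower at E41 (median log2 change 0.36), and 9 passed as higher and 0 as lower at E62 (median 1.72). FCER1G, another ITAM adaptor, rose by 0.74 ± 0.23 and 1.98 ± 0.23, and the kinase FGR (1.80 ± 0.18) and the exchange factor VAV1 (2.28 ± 0.21) rose at E62. For ITAM partners, the number higher at E41 was 0 (WT E41 replicate 2 or either KO E41 library, limma-voom, the replicate block, only the groups compared) and 4 (library sizes alone). In a list of genes expressed across leukocytes, 2 of 17 tested genes passed as higher and 1 as lower at E41 (median log2 change 0.19), and 14 passed as higher and 1 as lower at E62 (median 2.001). LCP1, an actin bundler of blood cells, rose by 2.32 ± 0.22 at E62, EVI2B by 2.14 ± 0.23 and ARHGDIB by 1.52 ± 0.15. HCLS1, known in blood cells as a cortical actin regulator, was lower in the knockout, at 139 and 126 CPM in wild type and 10.9 and 11.9 in the knockout at E41 and 149.98 and 96.3 CPM in wild type and 18.5 and 22.5 in the knockout at E62. HCLS1 changed by -3.54 ± 0.23 (edgeR adjusted p = 6.05e-05) and -2.59 ± 0.22 (edgeR adjusted p = 1.06e-04). For leukocyte-wide genes, the number higher at E41 was 0 (WT E41 replicate 2 or either KO E41 library, limma-voom), 5 (library sizes alone) and 10 (WT E41 replicate 1).

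Transcription factors of macrophages had the most calls at E41 of the macrophage lists. Among them, 8 of 13 tested genes passed as higher and 0 as lower at E41 (median log2 change 1.19), and 10 passed as higher and 0 as lower at E62 (median 1.29). MAF, a factor of macrophages and other cells, rose by 1.39 ± 0.09 at E41 and 1.29 ± 0.09 at E62, and CEBPA, which fat and myeloid cells share, by 1.67 ± 0.27 and 2.20 ± 0.27. SPI1, the myeloid factor PU.1, was at 4.49 and 3.01 CPM in wild type and 9.11 and 7.95 in the knockout at E41 and 4.36 and 5.74 CPM in wild type and 13.8 and 15.3 in the knockout at E62, a rise of 1.19 ± 0.24 and 1.53 ± 0.24. IKZF1, a lymphoid and myeloid factor, rose at E62 (1.90 ± 0.29). For transcription factors, the number higher at E41 was 5 (KO E41 replicate 1). Of oxidase and lysosome genes, 5 of 13 tested genes passed as higher and 2 as lower at E41 (median log2 change 0.56), and 9 passed as higher and 0 as lower at E62 (median 1.09). CYBA, a membrane subunit of the phagocyte oxidase, rose by 0.71 ± 0.10 and 1.24 ± 0.10. The cytosolic oxidase subunit NCF4 (1.74 ± 0.23) and the lysosomal protease CTSC (1.29 ± 0.16) rose at E62. The proteases LGMN (-0.70 ± 0.13) and CTSB (-0.44 ± 0.12) fell at E41. For oxidase and lysosome genes, the number higher at E41 was 2 (either KO E41 library) and 3 (WT E41 replicate 2), the number lower at E41 was 1 (either WT E41 library or either KO E41 library, library sizes alone), and the number higher at E62 was 5 (WT E62 replicate 2). For genes linked to resident macrophages of fetal tissue, 3 of 12 tested genes passed as higher and 0 as lower at E41 (median log2 change 0.60), and 8 passed as higher and 0 as lower at E62 (median 1.24). GAS6, a bridging ligand of MERTK made by many stromal cells, rose by 1.64 ± 0.11 and 0.88 ± 0.10, the haem oxygenase HMOX1 rose at E62 (0.85 ± 0.16), and so did MS4A7 (1.88 ± 0.31) and the purine receptor P2RY12 (2.20 ± 0.43). For resident macrophage genes, the number higher at E41 was 1 (WT E41 replicate 2 or KO E41 replicate 2), 5 (library sizes alone) and 6 (WT E41 replicate 1), and the number higher at E62 was 5 (WT E62 replicate 1).

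At E41 few complement genes other than C1q passed, to be read against 18.5% of all genes higher and 20.8% lower. At E62 those that passed outside the receptors were higher, against 21.0% of all genes higher and 26.2% lower. Of classical and lectin pathway genes other than C1q, 1 of 9 tested genes passed as higher and 0 as lower at E41 (median log2 change 0.71), and 4 passed as higher and 0 as lower at E62 (median 0.91). C4A, cut by the C1 complex, was at 10.2 and 9.95 CPM in wild type and 4.43 and 5.67 in the knockout at E41 and 9.62 and 16.5 CPM in wild type and 88.9 and 186 in the knockout at E62, so it stood below wild type at E41 without passing and rose at E62 (3.39 ± 0.44, edgeR adjusted p = 0.00173). KO E62 replicate 2 was the higher library for C4A and for the ficolin gene FCN2 (39.2 and 126 CPM against 3.28 and 2.97 in WT E62, log2 change 4.72 ± 0.61). C2, the enzyme that joins C4, had 0 to 6 reads in each E41 library, then 6 and 8 in WT E62 and 153 and 180 in KO E62, where it rose (3.64 ± 0.79). The scavenging collectin COLEC12 rose at E41 (1.14 ± 0.28). For the classical and lectin pathway, the number higher at E41 was 0 (either KO E41 library), 2 (WT E41 replicate 1, library sizes alone) and 3 (either KO E62 library, DESeq2, only the groups compared), the number lower at E41 was 1 (KO E41 replicate 2, the replicate block) and 2 (either KO E62 library, DESeq2, only the groups compared), and the number higher at E62 was 2 (WT E62 replicate 1) and 7 (library sizes alone). C4A is uncertain where near-identical copies share reads. In the alternative and terminal pathway, 1 of 8 tested genes passed as higher and 1 as lower at E41 (median log2 change 0.59), and 4 passed as higher and 0 as lower at E62 (median 2.06). Factor B (CFB) fell at E41 (-3.73 ± 0.29, edgeR adjusted p = 9.97e-05) from 11.6 and 15.7 to 0.753 and 1.303 CPM, while factor D (CFD), which is also a fat cell product, rose by 1.89 ± 0.22 and 2.19 ± 0.20. C5, the start of the terminal pathway, rose at E62 (1.93 ± 0.31). For the alternative and terminal pathway, the number higher at E41 was 2 (WT E41 replicate 2), the number higher at E62 was 2 (either WT E62 library or KO E62 replicate 2), and the number lower at E62 was 1 (KO E41 replicate 1, limma-voom, only the groups compared).

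Among complement receptors, 2 of 7 tested genes passed as higher and 1 as lower at E41 (median log2 change 0.60), and 4 passed as higher and 1 as lower at E62 (median 1.61). The C5a receptors C5AR1 (2.96 ± 0.31) and C5AR2 (3.46 ± 0.46) and the C3a receptor C3AR1 (2.55 ± 0.37) rose at E62. ITGAM, the alpha chain of complement receptor CR3, fell at E62 (-1.09 ± 0.37, edgeR adjusted p = 0.0405), and CALR, a chaperone that binds C1q at the cell surface, fell at E41 (-0.72 ± 0.12). For complement receptors, the number higher at E41 was 0 (WT E41 replicate 2 or KO E41 replicate 2, limma-voom), 1 (KO E41 replicate 1, the replicate block, only the groups compared), 4 (WT E41 replicate 1) and 5 (library sizes alone), and the number lower at E62 was 0 (either WT E62 library or KO E62 replicate 1, library sizes alone). Of complement inhibitors, 0 of 4 tested genes passed as higher and 0 as lower at E41 (median log2 change 0.12), and 3 passed as higher and 0 as lower at E62 (median 1.08). At E41 1 of them had an unadjusted edgeR p under 0.05, and DESeq2 and limma-voom called 0. SERPING1, the C1 inhibitor, rose at E62 (0.71 ± 0.14, edgeR adjusted p = 0.00428), and CLU (1.45 ± 0.44, adjusted p = 0.03899) and CFI (2.81 ± 0.92, adjusted p = 0.0486) also passed. For complement inhibitors, the number higher at E41 was 1 (library sizes alone), and the number higher at E62 was 1 (either WT E41 library, either WT E62 library or KO E62 replicate 1, limma-voom, no low-count filter, the replicate block, only the groups compared). In a list on recognition of apoptotic cells, 5 of 12 tested genes passed as higher and 1 as lower at E41 (median log2 change 0.37), and 5 passed as higher and 1 as lower at E62 (median 0.30). The cholesterol exporter ABCA1 rose by 1.37 ± 0.26 and 2.41 ± 0.26. The annexin ANXA1 fell at E41 (-0.91 ± 0.18) and rose at E62 (1.16 ± 0.18), the annexin ANXA5 rose at E62 (0.96 ± 0.14), and the receptor ADGRB1 did the reverse of ANXA1 (1.86 ± 0.32 and -1.02 ± 0.31). For apoptotic cell recognition, the number higher at E41 was 3 (either KO E41 library), the number lower at E41 was 2 (DESeq2), and the number lower at E62 was 0 (either WT E62 library or KO E62 replicate 1, library sizes alone). For substrates and partners of CD45, together with relatives of LAPTM5, 3 of 9 tested genes passed as higher and 3 as lower at E41 (median log2 change 0.29), and 3 passed as higher and 1 as lower at E62 (median 0.24). LAPTM4A rose slightly at both stages (0.44 ± 0.10 and 0.29 ± 0.10) and LAPTM4B fell (-0.57 ± 0.11 and -0.78 ± 0.11). For CD45 partners and LAPTM5 relatives, the number higher at E41 was 1 (KO E41 replicate 1), the number lower at E41 was 0 (library sizes alone), and the number higher at E62 was 0 (WT E62 replicate 1 or KO E62 replicate 2), 1 (WT E62 replicate 2, limma-voom) and 5 (library sizes alone).

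Antigen presentation genes rose from E41 to E62. For genotype, the share called higher was near that of all genes, which was 18.5% at E41 and 21.0% at E62. Of MHC class II genes, 1 of 6 tested genes passed as higher and 0 as lower at E41 (median log2 change 0.55), and 1 passed as higher and 0 as lower at E62 (median 0.54). From E41 to E62, 6 of 6 passed as higher in wild type and 4 in the knockout, against 19.8% and 12.1% of all genes. Both numbers were lower in some alternatives. The median log2 change over time was 2.37 in wild type (2.12 to 2.86 over the alternatives) and 2.26 in the knockout (1.29 to 2.83). CD74, the invariant chain, stood at 4.299 and 3.58 CPM in wild type and 8.07 and 7.45 in the knockout at E41 and 56.1 and 41.7 CPM in wild type and 27.01 and 95.4 in the knockout at E62, with the KO E62 libraries on either side of wild type. SLA-DMB, which loads peptides onto class II molecules, rose with the knockout at E62 (1.12 ± 0.17, edgeR adjusted p = 0.00128). CIITA, the class II transactivator, did not pass at either stage (0.48 ± 0.18 and -0.43 ± 0.17), and its effects differed between stages (-0.91 ± 0.25, edgeR adjusted p = 0.0313). For MHC class II genes, the number higher at E41 was 0 (either WT E41 library, either KO E41 library or WT E62 replicate 2, DESeq2, limma-voom, relative log expression factors, no low-count filter, the replicate block) and 2 (either KO E62 library, library sizes alone, the CPM filter, only the groups compared), the number higher at E62 was 3 (KO E62 replicate 1), and the number lower at E62 was 2 (KO E62 replicate 2). MHC genes of pigs have close copies, so their estimated counts are uncertain.

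**Figure D4:**
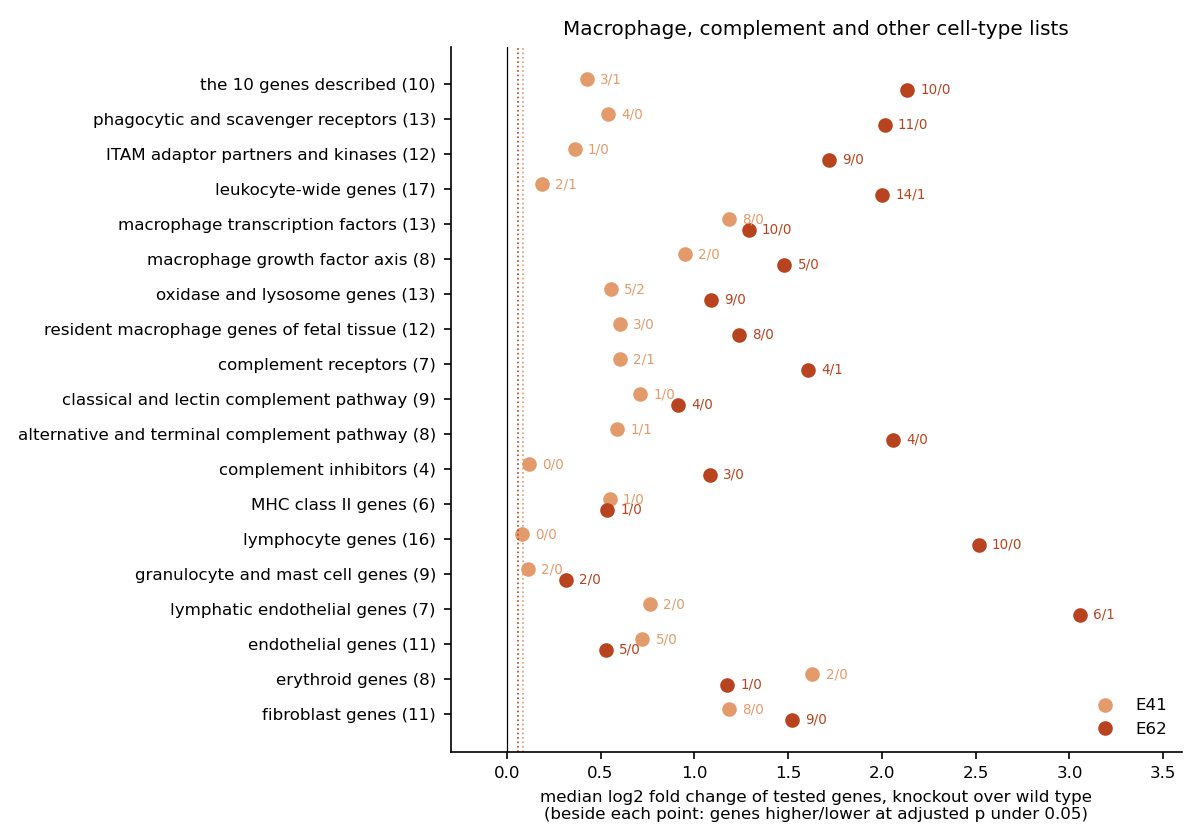
Median log2 fold change of knockout over wild type at E41 and E62 for the 10 genes described and for 18 gene lists (number of tested genes in brackets), with the numbers of genes called higher and lower beside each point and dotted lines at the median of all genes. Genes with 3 or fewer counts in a group are set to that floor. At E62 the 10 genes lie at 2.13. Near them are the alternative and terminal complement (2.06), scavenger receptor (2.02) and leukocyte-wide (2.001) lists. The lymphocyte (2.52) and lymphatic endothelial (3.06) lists are higher.

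Markers of other cells that such tissue can hold moved as well, and their part in the results was not tested. Most genes of the macrophage panel are among those described above, so its sum largely restates their levels. The macrophage panel summed to 139 to 278 CPM in WT E41, 309 to 312 in KO E41, 205 to 226 in WT E62 and 774 to 819 in KO E62. The fibroblast panel of 5 genes summed to 3805 to 4924, 7824 to 7899, 3142 to 4479.6 and 6422 to 6689.9 CPM in the same order, and the endothelial panel of 5 to 576 to 702, 745 to 845, 746 to 768 and 851 to 1376. No marker of these 3 panels was at 0 in both libraries of a group. Of the 4 tested macrophage panel genes not described above, 2 passed as higher and 0 as lower at E41 (median log2 change 0.92). At E62, 3 of these 4 passed as higher and 0 as lower (median 1.36). Of fibroblast genes, 8 of 11 tested genes passed as higher and 0 as lower at E41 (median log2 change 1.18), and 9 passed as higher and 0 as lower at E62 (median 1.52). Of endothelial genes, 5 of 11 tested genes passed as higher and 0 as lower at E41 (median log2 change 0.72), and 5 passed as higher and 0 as lower at E62 (median 0.53). For fibroblast genes, the number higher at E41 was 4 (WT E41 replicate 2 or either KO E41 library). For endothelial genes, the number higher at E41 was 2 (WT E41 replicate 2), 3 (KO E41 replicate 1) and 9 (either KO E62 library, library sizes alone), the number higher at E62 was 1 (WT E62 replicate 1), 2 (either KO E41 library, WT E62 replicate 2 or KO E62 replicate 2, the replicate block), 8 (library sizes alone) and 9 (KO E62 replicate 1), and the number lower at E62 was 2 (KO E62 replicate 2). The lymphatic panel of 3 genes, PROX1, FLT4 and LYVE1, summed to 69.6 to 113, 101 to 117, 62.4 to 67.4 and 219.5 to 266 CPM. Among lymphatic endothelial genes, 2 of 7 tested genes passed as higher and 0 as lower at E41 (median log2 change 0.76), and 6 passed as higher and 1 as lower at E62 (median 3.06). CCL21, the chemokine of lymphatic vessels, was at 2.71 and 4.18 CPM in wild type and 155 and 214 in the knockout at E62, a change of 5.74 ± 0.26 (edgeR adjusted p = 5.58e-06). MMRN1 changed by 6.16 ± 0.46, the receptor FLT4 by 3.06 ± 0.29, the hyaluronan receptor LYVE1 by 1.75 ± 0.26 and PROX1, the factor that sets lymphatic identity, by 1.45 ± 0.28 at E62. For lymphatic endothelial genes, the number higher at E41 was 0 (WT E41 replicate 2) and 1 (KO E41 replicate 1, limma-voom), and the number lower at E62 was 0 (WT E62 replicate 1 or KO E62 replicate 1, library sizes alone). LYVE1 is counted both in this list and among the scavenger receptors.

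Lymphocyte markers had few reads at E41, and most of those tested rose at E62. The counts below stand against 18.5% of all genes higher and 20.8% lower at E41, and 21.0% and 26.2% at E62. The panel of 6 summed to 2.03 to 2.85, 2.22 to 3.496, 1.74 to 2.77 and 6.801 to 22.9 CPM in the same order, and 2 of the 6 were at 0 in both WT E41 libraries. Of lymphocyte genes, 0 of 16 tested genes passed as higher and 0 as lower at E41 (median 0.08 with genes of 3 or fewer counts at that floor, 1.05 as fitted), and 10 passed as higher and 0 as lower at E62 (median 2.52). At E41 5 had an unadjusted edgeR p under 0.05, and DESeq2 called 2 and limma-voom 0. NKG7, of cytotoxic cells, rose by 2.55 ± 0.37 and the T cell receptor subunit CD3D by 2.54 ± 0.55. MS4A1 (CD20) stood at 1.09 and 6.39 CPM in KO E62 and CD79A, of the B cell receptor, at 1.61 and 8.76, far higher in replicate 2. IL7R, of lymphoid cells, had 4 and 1 reads in WT E62 and 67 and 255 in KO E62. For lymphocyte genes, the number higher at E41 was 1 (KO E62 replicate 1, TMM without muscle genes, the CPM filter, the replicate block, only the groups compared), 2 (WT E41 replicate 1 or KO E62 replicate 2, DESeq2) and 3 (library sizes alone), the number lower at E41 was 1 (KO E62 replicate 1), and the number higher at E62 was 3 (either WT E62 library, the CPM filter) and 5 (limma-voom). Of granulocyte and mast cell genes, 2 of 9 tested genes passed as higher and 0 as lower at E41 (median 0.11 with genes of 3 or fewer counts at that floor, 0.04 as fitted), and 2 passed as higher and 0 as lower at E62 (median 0.31). MS4A2, of the mast cell IgE receptor, rose by 1.74 ± 0.59 and 2.80 ± 0.51, GATA2 by 1.45 ± 0.37 and 1.60 ± 0.35, and S100A8, of neutrophils, did not pass (0.44 ± 0.77 and 1.36 ± 1.06). For granulocyte and mast cell genes, the number higher at E41 was 0 (either WT E41 library or KO E41 replicate 1, limma-voom) and 1 (KO E41 replicate 2 or either WT E62 library, the CPM filter, only the groups compared), the number higher at E62 was 1 (WT E62 replicate 1, the CPM filter) and 4 (KO E62 replicate 1), and the number lower at E62 was 1 (KO E62 replicate 2). The granulocyte and mast cell panel, 4 of 7 genes in the file, summed to 58.98 to 78.6, 70.8 to 88.4, 31.8 to 39.01 and 33.7 to 49.3 CPM. Erythroid markers, 3 of 4 in the file, summed to 60.9 to 107, 97.6 to 219, 34.3 to 107 and 97.5 to 177. Of erythroid genes, 2 of 8 tested genes passed as higher and 0 as lower at E41 (median log2 change 1.63), and 1 passed as higher and 0 as lower at E62 (median 1.18). For erythroid genes, the number higher at E41 was 1 (WT E41 replicate 2 or either KO E41 library, limma-voom), and the number higher at E62 was 2 (DESeq2, library sizes alone) and 4 (KO E62 replicate 1). All 26 muscle genes tested were lower at both stages.

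Genes whose levels followed the 10 most closely included phagocyte and leukocyte genes. Likeness was the root mean square distance, on the log2 CPM scale, between a gene's centred levels and the mean centred profile of the 10 genes over the 8 libraries, among 11900 genes with a symbol and a mean of at least 2 CPM. GIMAP4, a GTPase of immune cells, came first at 0.116, with 18.7 and 12.5 CPM in WT E41, 18.99 and 17.2 in KO E41, 13.5 and 14.9 in WT E62 and 56. and 55.2 in KO E62. PTPN6, the phosphatase SHP-1 of blood cells, was at 0.121, VSIG4 at 0.135 and IFI30, a lysosomal thiol reductase of antigen-presenting cells, at 0.144. GP91-PHOX, the catalytic subunit of the phagocyte oxidase, was at 0.152, LRRC25 at 0.153 and MPEG1, the macrophage pore protein perforin-2, at 0.158. FCER1G (0.159) and the leukocyte tetraspanin CD53 (0.166) were also among the 10 closest. The distance of the described genes themselves ran from 0.177 for TYROBP to 0.465 for AIF1. All points share the same 8 libraries, so this ranking is a description.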

How the data were processed

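The deposited table holds expected counts (estimated counts per gene, whole numbers as deposited, not normalized), with 1 column for each of 8 libraries of pig limb muscle. The builds Sscrofa11.1 and susScr11 and the tools kallisto and DESeq2 stand in the submitters' processing notes without a role, and no source used here gives filters. The labels' protocols name 2 TruSeq kits, RNA and Stranded mRNA, and use of strand in counting is not stated, so overlapping antisense genes cannot be told apart. Symbols were found for 15527 of 22516 identifiers. Groups and replicate numbers come from sample titles.

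Counts, rounded to whole numbers, were TMM-scaled. edgeR 4.0.16 under R 4.3.3 fitted a mean for each of 4 groups to the 8 libraries, after filterByExpr with a minimum count of 10, which left 17020 genes and 4 residual degrees of freedom. The robust quasi-likelihood F test (two-sided) was adjusted by Benjamini-Hochberg over all genes tested, with a threshold of 0.05. Standard errors are the log2 change over the square root of F. Alternatives were DESeq2 1.42.0, limma-voom (limma 3.58.1), relative log expression factors, library sizes alone, TMM from genes outside the muscle list, no low-count filter, at least 1 CPM in 4 libraries, a block for replicate number, a fit of the 2 groups alone, and each library left out in turn. Where leaving a library out left a group with 1, that one was assumed to vary like the others. The steps were also run on simulated data with few changed genes and the same spread for every gene. These data differ in both, so that run does not test the scaling or the spread here. The 10 genes and the 21 lists (272 further genes, 229 tested) were chosen with earlier results of these data known. From each list, at most 4 genes of lowest p and at most 2 that went against the majority could be named, plus the 10 genes most alike in profile. SPI1, CD68, LAPTM4A, PROX1, MS4A1 and CD79A fell outside this rule and were chosen after their values were seen. Some genes that the rule selects are not reported here. The libraries within each group were not duplicates: they varied beyond sampling noise, with a chi-square per degree of freedom of 31.8 to 70.04. No sequence is shown.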

Additional observations from a re-analysis of the deposited data

Results flagged for a closer look

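For 38 of 74 genes named here, leaving aside those chosen for their profile over the libraries, the knockout effect differed between E41 and E62 by edgeR's test of the difference (adjusted p under 0.05). Over all genes this test called 11.2% higher and 15.5% lower, and most of the list genes were named for their small p in the tests of genotype, so the count describes them only. Values in brackets are the difference of the log2 changes, E62 minus E41. Of the 10 genes described, these were C1QA (1.24), C1QB (1.92), C1QC (2.51), LAPTM5 (1.93), AIF1 (2.50), TYROBP (1.24) and PTPRC (2.08). Of these, AIF1 was called lower at E41 and higher at E62, and none of the others changed direction with a call at both stages. Macrophage receptors and transcription factors were STAB1 (1.89), SIGLEC1 (2.22), CD68 (2.26), MS4A7 (2.13) and IKZF1 (1.53). Signalling partners were VAV1 (1.88) and FGR (1.42), and leukocyte-wide genes HCLS1 (0.95), ARHGDIB (1.33), LCP1 (2.28) and EVI2B (2.06), HCLS1 being lower in the knockout at both stages. Complement genes were C4A (4.39), C2 (5.56), CFB (3.12), C5 (2.69), C5AR1 (2.0001), C5AR2 (2.12) and CALR (0.57). Oxidase, lysosome and antigen-processing genes were CYBA (0.53), CTSC (0.85), LGMN (0.97) and CTSB (0.85), and CIITA (-0.91) went the other way. In apoptotic cell recognition the values were ANXA5 (1.30), ANXA1 (2.08), GAS6 (-0.75) and ADGRB1 (-2.89). The lymphatic genes were CCL21 (4.67), MMRN1 (5.40), FLT4 (1.94) and LYVE1 (1.80), LYVE1 being counted among the scavenger receptors too. C2 had 0 and 6 reads in the KO E41 libraries, so its value depends on few reads.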

How the results depend on the processing

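The rise of all 10 genes at E62 held its direction and its call in each alternative that kept all libraries. With 1 library left out, 8 to 10 of the 10 were called there, the exceptions being CD163 and MRC1. At E41, 5 of the 10 were higher with library sizes alone and 1 to 8 with 1 library left out, and 0 were lower with limma-voom and with library sizes alone (0 to 1 with 1 left out). In wild type over time, 0 of the 10 were higher with relative log expression factors, no low-count filter, the replicate number as a block and only the groups compared. That number was 2 with library sizes alone, TMM from genes outside the muscle list and the CPM filter, and 0 to 5 with 1 library left out. The number lower was 1 with limma-voom and 1 to 5 with 1 left out. Over all genes, leaving out 1 library gave 3927 to 6720 calls at E41 (6678 with all libraries), 2499 to 4282 for the difference between stages (4553), 4491 to 6885 over time in wild type (6782) and 1906 to 5022 in the knockout (5126). Fits with 1 library less have fewer residual degrees of freedom. Signs turned in these cases, many of them in fits that left WT E41 with 1 library. C1QC at E41 (-0.03 with all libraries) was 0.023 with limma-voom, 0.26 with library sizes alone and 0.013 with the CPM filter. With 1 library left out, the log2 change at E41 ran from -0.33 to 0.40 for C1QC, -0.35 to 1.37 for CD163 and -0.23 to 1.30 for MRC1. The difference between stages ran from -0.23 to 0.67 for CSF1R. In wild type over time the change ran from -0.083 to 0.65 for C1QB, -0.46 to 0.27 for C1QC, -0.98 to 0.73 for CD163, -1.19 to 0.35 for MRC1 and -0.31 to 0.67 for PTPRC. Both ends of each of these ranges came from leaving out 1 of the 2 WT E41 libraries, the higher end without replicate 1 and the lower without replicate 2, or the reverse for CSF1R. PTPRC over time in wild type also turned without WT E62 replicate 2 (-0.14). The cause was not tested.

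Library sizes alone moved the median log2 change of all genes from 0.09 to 0.38 at E41 and from 0.06 to 0.36 at E62, and the share of calls that were higher from 47.1% to 73.6% and from 44.5% to 69.4%. Same-numbered replicates did not clearly deviate together (r of deviations from the group means -0.25 to 0.09 over 13168 genes). With so few libraries per group this cannot exclude a pairing of the samples. With the replicate number as a block, 3 of the 10 genes were higher and 1 lower at E41, 10 higher at E62, 7 higher in the difference, 0 over time in wild type and 8 in the knockout. The least deeply counted of the 10 genes, PTPRC, had 44 reads in its lowest library.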
